A study of Mus musculus with 36 samples.

Results

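Transcripts of 38 genes of T cells, natural killer (NK) cells, B cells and plasma cells were followed in whole mouse livers, 25 of T and NK cells and 13 of B and plasma cells. They are markers of these lymphocytes, and their rows were found by symbol among the 32544 gene symbols of the count table. All 38 had a row, and 35 passed the filter on low counts. Eomes and Tbx21, which encode transcription factors of cytotoxic cells, and Tnfrsf17, a survival receptor of plasma cells, did not pass it and were not tested. The livers were those of 36 mice in 6 groups of 6, all males of the strain C57BL/6N, whose treatment began at 8 to 10 weeks of age. The CCl4 groups received carbon tetrachloride (1 g per kg, dissolved in olive oil) over 2, 6 or 12 months, by 2 intraperitoneal injections per week. The oil groups received olive oil alone for 2 or 12 months, and no oil group is labelled for month 6. In the CCl4 and oil groups the last injection preceded sampling by 6 days. The remaining group is titled month 0 control, although its treatment label reads olive oil. Every group shares the strain, the sex and, as labelled, olive oil, and the titles name 6 separate replicates in each group.

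T cells recognise antigen through a receptor that signals through the CD3 proteins. CD4 and CD8 are coreceptors that divide T cells into helper and cytotoxic lineages. Cytotoxic T cells and NK cells kill target cells with perforin and granzymes, and the liver normally holds both. B cells carry a surface antibody that signals through CD79, and plasma cells derived from them secrete antibody made of heavy and light chains. IgM is the first antibody class made in a response and can be secreted as a polymer held by the J chain, as IgA can.

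Each library held between 19403247 and 28917545 counts. The unit of level is CPM, the read count relative to the size of its library after correction for composition, and some of the lowest levels are printed with their counts. Hepatocyte transcripts were abundant in every library. The summed level of 10 hepatocyte markers was between 63604 and 100812 CPM in month 12 CCl4 livers. In month 12 oil livers it was between 66102 and 114019 CPM. Of the 10, 0 were called higher in CCl4 livers and 7 lower, against 25.9% and 23.2% of all genes. Several libraries stood apart in transcripts of other tissues. Summed intestine markers reached 833 CPM in month 2 CCl4 replicate 6, against at most 234 CPM in any other library, and summed neutrophil markers reached 239 CPM in month 2 CCl4 replicate 1. Summed pancreas markers reached 17493 CPM in month 2 oil replicate 2, and summed mesothelial and adipose markers reached 124 CPM in month 12 oil replicate 2, both the highest of their group. The part of these transcripts in the results below was not tested, but every count of called members is also given without these 4 libraries where it moved by more than 1.5 times. In bulk liver RNA, fewer cells of a type and less RNA per cell cannot be told apart.

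Of the 35 tested members, 3 passed the threshold for CCl4 against oil at month 2, against 10.4% of all 15338 tested genes. A member was called at an adjusted p below 0.05, from edgeR's quasi-likelihood test with Benjamini-Hochberg adjustment over all tested genes. In month 6 CCl4 livers 6 members were called against the average of both oil groups, against 11.4% of all genes. At month 12, 15 members were called, against 49.1% of all genes, and 15 of 35 is a smaller share than that background. The direction was uneven: all 15 were higher in CCl4 livers, whereas 25.9% of all genes were called higher and 23.2% lower. At month 2, 2 members were called higher and 1 lower, against 7% and 3.38% of all genes, and at month 6, 5 were called higher and 1 lower, against 7.71% and 3.68%. The median log2 fold change of the 35 members was 0.06 at month 2, 0.32 at month 6 and 0.72 at month 12, and that of all tested genes was between -0.00158 and 0.0135. Of the 15 members called at month 12, 13 were T and NK genes and 2 were B cell genes. Both oil groups served in these comparisons, so that the month 6 values share oil mice with those of months 2 and 12. The oil reference of month 6 is not matched in age or in duration of oil, so age and CCl4 cannot be fully told apart there.

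**Figure D1:**
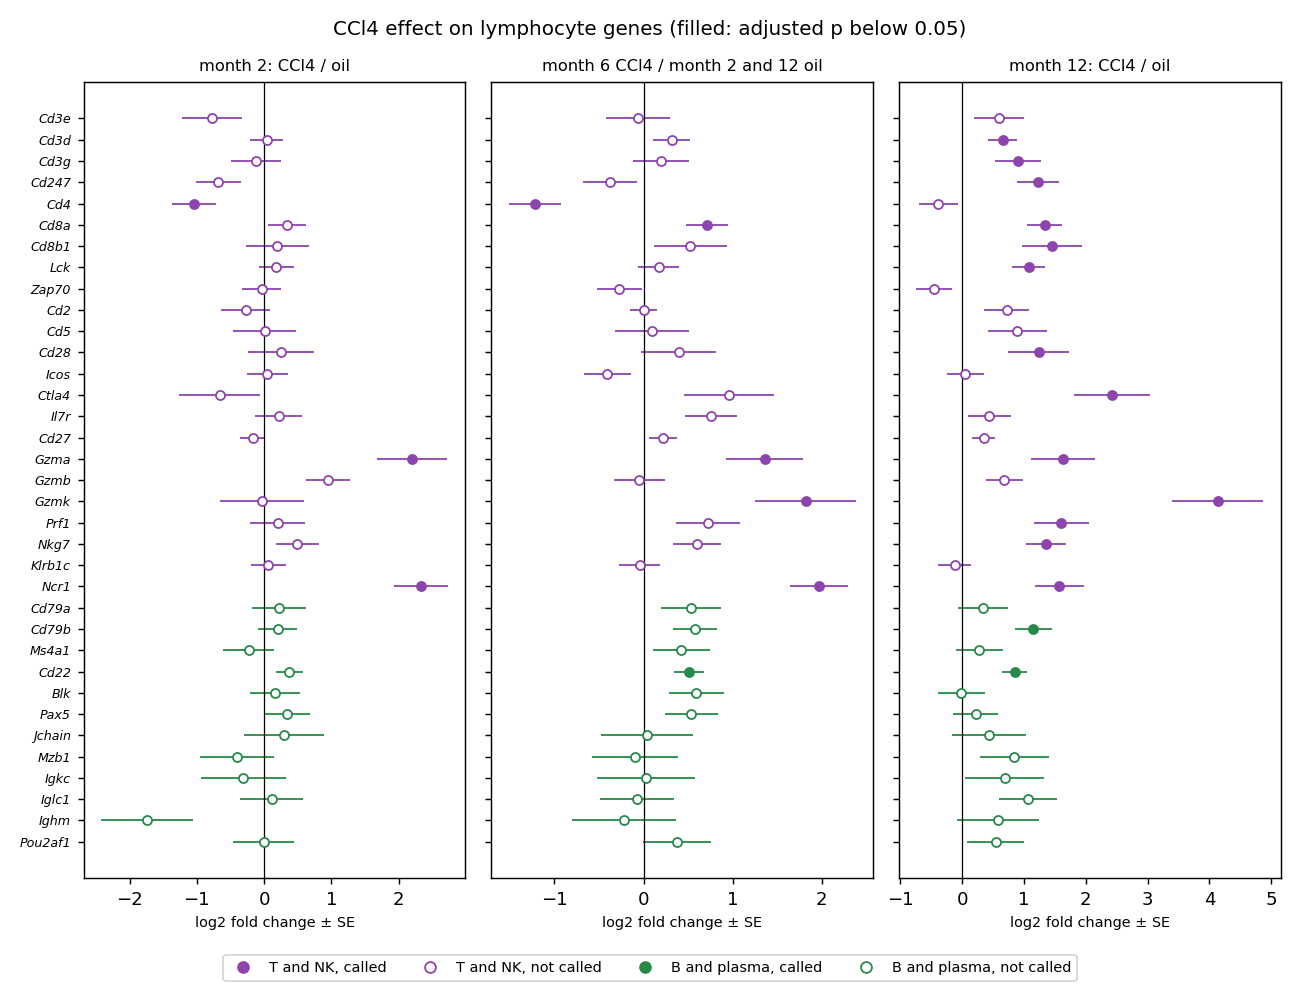
Log2 fold change (horizontal axis) with its standard error for the 35 tested members (vertical axis) in CCl4 livers over oil livers at month 2, month 6 and month 12. Filled points passed the adjusted p threshold of 0.05; at month 12 the 15 filled points all lie right of 0, 13 of them T and NK members, and Gzmk reaches 4.13.

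The promoter windows of Gzmk, Nkg7 and Prf1, 3 cytotoxic genes called higher at month 12, are shown because they hold recognised sequence cores of lymphocyte transcription factors. Each window runs from 250 bases before to 50 after the annotated start, on the strand of the gene, with sequence from RefSeq on GRCm38.p6. Capitals mark the core GGTGTGA of T-box factors such as Eomes and T-bet, the core TGTGGT of RUNX factors and the site CAGGAAGT of ETS factors, each on either strand, and no marked motif overlaps another. Gzmk lies at chr13:113180916-113181215 on the minus strand, Nkg7 at chr7:43436888-43437187 on the plus strand and Prf1 at chr10:61297586-61297885 on the plus strand. The Gzmk window lies inside the gene span given below (chr13:113171608-113225908, from GENCODE vM21). The start used for the window thus differs from the end of that span.
Gzmk: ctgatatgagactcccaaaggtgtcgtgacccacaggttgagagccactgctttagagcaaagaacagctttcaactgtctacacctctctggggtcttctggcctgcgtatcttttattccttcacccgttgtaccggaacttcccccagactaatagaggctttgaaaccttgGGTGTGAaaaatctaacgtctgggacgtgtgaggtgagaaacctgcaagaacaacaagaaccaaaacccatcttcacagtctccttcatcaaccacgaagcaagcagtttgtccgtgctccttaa
Nkg7: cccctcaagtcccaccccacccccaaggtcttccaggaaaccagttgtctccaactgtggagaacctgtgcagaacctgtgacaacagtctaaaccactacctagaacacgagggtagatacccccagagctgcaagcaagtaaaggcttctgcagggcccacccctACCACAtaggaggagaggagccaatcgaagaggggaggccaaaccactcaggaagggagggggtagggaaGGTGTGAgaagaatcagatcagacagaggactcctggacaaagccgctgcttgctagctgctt
Prf1: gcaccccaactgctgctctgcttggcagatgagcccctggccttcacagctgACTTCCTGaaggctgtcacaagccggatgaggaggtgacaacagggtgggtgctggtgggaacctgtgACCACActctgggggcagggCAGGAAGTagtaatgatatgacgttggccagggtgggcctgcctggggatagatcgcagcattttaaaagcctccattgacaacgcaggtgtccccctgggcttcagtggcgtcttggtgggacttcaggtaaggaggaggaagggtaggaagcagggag
Of the 38 members, 26 had a window in the table. Cd4, Cd8b1, Cd2, Cd28, Icos, Cd79b, Ms4a1, Blk, Mzb1, Igkc, Iglc1 and Ighm are named only. Members were counted by gene and the background by window. The T-box core stood in windows of 2 of the 20 T and NK genes, Gzmk and Nkg7, and of 0 of the 6 B and plasma genes. It stood in 3.98% of all 32851 windows of the same length. The RUNX core stood in those of 9 T and NK genes and 1 B and plasma gene, against 16.8% of all windows. The ETS site stood in those of 6 and 1, against 3.33%. A match describes these letters and is not a binding site.

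The T cell receptor complex was represented by the CD3 chains Cd3e, Cd3d and Cd3g and the zeta chain Cd247. Cd3e, Cd3d and Cd3g are neighbours on chromosome 9 (mm10, chr9:44969572-45009627 across all of them), and Cd247 lies at chr1:165788681-165877277. At month 12 all 4 had fold changes above 0, and 3 of the 4 were called higher, against 25.9% of all genes. Cd247 was between 1.21 and 1.88 CPM in month 12 CCl4 livers, with a median of 1.52, against 0.272 to 1.41 CPM in month 12 oil livers, with a median of 0.550. The groups overlapped through a single oil mouse, replicate 1, and the log2 fold change was 1.23 ± 0.34 (SE, adjusted p = 0.003016). Cd3g was between 0.897 and 2.12 CPM in month 12 CCl4 livers, with a median of 1.45, against 0.316 to 1.31 CPM in oil livers, with a median of 0.723. Its log2 fold change was 0.91 ± 0.37 (adjusted p = 0.03994), and that of Cd3d was 0.65 ± 0.24 (adjusted p = 0.0251), with overlapping groups for both. Cd3e had a median of 0.551 CPM in CCl4 livers and 0.295 CPM in oil livers, and its log2 fold change of 0.60 ± 0.40 did not pass (adjusted p = 0.2237). Without oil replicate 2, whose 0.832 CPM was the highest of its group, the Cd3e value was 1.01 and was called (adjusted p = 0.04219). The Cd3d call was lost without CCl4 replicate 2 or without oil replicate 3 or 4, at log2 values from 0.51 to 0.59. The Cd3g call was lost without any 1 of 7 of the 12 mice (CCl4 replicates 2, 5 and 6, oil replicates 3, 4, 5 and 6), at values from 0.73 to 0.92.

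None of the 4 was called with CCl4 at months 2 and 6. The summed level of the 4 was between 3.45 and 6.15 CPM in month 12 CCl4 livers, against 1.86 to 3.74 CPM in month 12 oil livers, and between 1.84 and 3.10 CPM in month 2 CCl4 livers, against 1.96 to 5.29 CPM in month 2 oil livers. At month 2 the CCl4 range thus lay within or below the oil range, while at month 12 the groups overlapped only at their edges. The CCl4 effect on Cd247 was -0.68 at month 2. At month 12 it was higher by 1.91 ± 0.48 (SE) on the log2 scale (interaction, adjusted p = 0.003972). Cd247 was also higher in month 12 than in month 6 CCl4 livers, with no overlap between 1.21 to 1.88 CPM at month 12 and 0.462 to 0.855 CPM at month 6 (log2 1.24 ± 0.34, adjusted p = 0.003476).

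Among the 12 coreceptor and signalling members, 5 were called higher and 0 lower in month 12 CCl4 livers. Of all genes 25.9% were called higher and 23.2% lower. Cd8a and Cd8b1, which encode the chains of the CD8 coreceptor, are neighbours on chromosome 6 (chr6:71373427-71379173 and chr6:71322788-71337494). Cd8a was between 1.08 and 3.25 CPM in month 12 CCl4 livers, with a median of 1.84, against 0.542 to 1.11 CPM in month 12 oil livers, with a median of 0.704. The groups overlapped at 1 mouse each, and the log2 fold change was 1.33 ± 0.28 (SE, adjusted p = 0.0002269). Cd8b1 differed by 1.45 ± 0.49 (adjusted p = 0.01392), a call that was lost without CCl4 replicate 2, the highest mouse at 1.29 CPM (log2 1.13, adjusted p = 0.05962). Lck, the kinase that phosphorylates the CD3 chains, was between 1.04 and 2.55 CPM in CCl4 livers, with a median of 1.73, against 0.360 to 1.23 CPM in oil livers, with a median of 0.837. Its log2 fold change was 1.08 ± 0.27 (adjusted p = 0.00113), with overlap at the edges of the groups.

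The helper coreceptor Cd4 (chr6:124864692-124888221) moved the other way. In month 2 CCl4 livers it was between 0.839 and 1.26 CPM, with a median of 1.13, against 1.24 to 3.67 CPM in month 2 oil livers, with a median of 1.91. A single CCl4 mouse reached into the oil range, and the log2 fold change was -1.05 ± 0.33 (SE, adjusted p = 0.0349). In month 6 CCl4 livers Cd4 was between 0.630 and 1.58 CPM, and its fold change against both oil groups was -1.22 ± 0.30 (adjusted p = 0.005459). At month 12 Cd4 was between 1.07 and 2.69 CPM in CCl4 livers, against 1.31 to 3.95 CPM in oil livers, and -0.38 ± 0.32 did not pass (adjusted p = 0.3313). The month 2 call was lost without any 1 of 6 of the 12 mice (CCl4 replicates 4, 5 and 6, oil replicates 1, 4 and 6), at log2 values from -1.08 to -0.85, and without the 4 libraries that stood apart (-1.10, adjusted p = 0.08917). With library totals alone as the scaling the month 2 call was also lost. Cd4 is also transcribed in some macrophages and dendritic cells, and summed macrophage markers were between 992 and 1841 CPM in month 2 CCl4 livers, against 681 to 891 CPM in month 2 oil livers, with 10 of 14 called higher and 0 lower. Of all genes 7% were called higher and 3.38% lower at month 2. The part of the macrophage transcripts in the Cd4 values was not tested.

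The costimulatory receptor Cd28 and the inhibitory receptor Ctla4 bind the same ligands, and both genes lie with Icos on chromosome 1 (chr1:60716800-60773359 for Cd28 and chr1:60887000-60915832 for Ctla4). Ctla4 was between 0.208 and 0.715 CPM in month 12 CCl4 livers, with a median of 0.438, against 0 to 0.182 CPM in month 12 oil livers, with a median of 0.0904. Every CCl4 mouse was above every oil mouse, and the log2 fold change was 2.43 ± 0.62 (SE, adjusted p = 0.001459), on 6 to 25 counts per CCl4 library and 0 to 4 per oil library. At month 2 the Ctla4 effect was -0.66 and was not called. The interaction with month was 3.08 ± 0.87 (adjusted p = 0.009747), and it was lost without month 2 oil replicate 4, which held 0.732 CPM (2.21, adjusted p = 0.06073). Cd28 was between 0.646 and 2.48 CPM in month 12 CCl4 livers, against 0.210 to 1.07 CPM in oil livers, with overlapping groups (log2 1.24 ± 0.49, adjusted p = 0.03603). Its call was lost without any 1 of 6 of the 12 mice (CCl4 replicate 6 and oil replicates 1, 3, 4, 5 and 6), at values from 0.90 to 1.24.

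The other 6 members of this list were not called in any CCl4 comparison against oil. They comprise the adhesion molecule Cd2, the receptor modulator Cd5, the costimulatory receptors Icos and Cd27, the interleukin 7 receptor chain Il7r and the kinase Zap70. At month 12 their log2 fold changes lay between -0.45 for Zap70 and 0.89 ± 0.47 (SE) for Cd5 (adjusted p = 0.1201). Zap70 stood apart from the rest in its level and its pattern. Its median was 9.78 CPM in month 12 CCl4 livers and 11.8 CPM in month 12 oil livers, against 1.73 and 0.837 CPM for Lck, which acts just before it in T cell receptor signalling. In month 12 CCl4 replicate 6 Zap70 was at its lowest, 1.17 CPM, in the mouse in which Lck was at its highest, 2.55 CPM. Per kilobase of exon the median Zap70 level at month 0 was 3.41 CPM, above the 0.253 CPM of Lck and the 0.467 CPM of Cd3d.

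The 7 tested NK and cytotoxic members held the highest log2 fold change of all members in each of the 3 CCl4 comparisons, that of Ncr1 at months 2 and 6 and of Gzmk at month 12. Gzmk and Gzma, neighbours on chromosome 13 (chr13:113171608-113225908 and chr13:113093825-113100981), encode granzymes K and A, proteases of cytotoxic granules. Gzmk was between 0.287 and 0.927 CPM in month 12 CCl4 livers, with a median of 0.516, against 0 to 0.0456 CPM in month 12 oil livers, with a median of 0.0424. Every CCl4 library held 8 to 28 counts of Gzmk and every oil library 0 or 1, so that the size of the log2 fold change of 4.13 ± 0.74 (SE, adjusted p = 2.11e-05) is uncertain although the groups did not overlap. The CCl4 effect on Gzmk was -0.03 at month 2, and at month 12 it was higher by 4.16 ± 0.99 (interaction, adjusted p = 0.002445). At month 6 its level in CCl4 livers was between 0.0665 and 0.556 CPM, with a median of 0.218. The month 6 value of 1.82 ± 0.56 (adjusted p = 0.03055) depended on which oil group it was set against, at 3.07 for month 12 oil alone (adjusted p = 0.01172) and 0.56 for month 2 oil alone (adjusted p = 0.6312). That call was also lost without replicate 3 or 5 of month 6 CCl4 and without replicate 5 or 6 of month 12 oil, at values from 1.497 to 1.70.

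Gzma was called higher in CCl4 livers at all 3 times, at month 6 with little margin. It was between 0.871 and 6.63 CPM in month 2 CCl4 livers, with a median of 1.39, against 0.183 to 0.818 CPM in month 2 oil livers, with a median of 0.411 (log2 2.20 ± 0.51, SE, adjusted p = 0.00479). In month 12 CCl4 livers it was between 0.890 and 1.98 CPM, with a median of 1.28, against 0.0792 to 0.677 CPM in month 12 oil livers, with a median of 0.478 (1.63 ± 0.52, adjusted p = 0.00966). At both months every CCl4 mouse was above every oil mouse. The month 2 maximum was replicate 6, the library with intestine transcripts, and without it the value was 1.45 (adjusted p = 0.04555). At month 6, 1.36 ± 0.43 (adjusted p = 0.03433) rested on replicate 1, at 3.61 CPM, without which it was 0.65 (adjusted p = 0.3573). The month 6 call was also lost without month 2 oil replicate 1, 3 or 5 or month 12 oil replicate 3, with 1.33 as the highest of these values. It was lost too against month 12 oil alone (1.41, adjusted p = 0.09541), against month 2 oil alone (1.31, adjusted p = 0.1145), when the compared groups alone were fitted (1.35, adjusted p = 0.05208) and with the replicate block (1.28, adjusted p = 0.05666).

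Ncr1 (chr7:4337724-4345164) encodes NKp46, an activating receptor of NK cells and other innate lymphocytes, and was, like Gzma, called higher at all 3 times. It was between 0.645 and 1.08 CPM in month 2 CCl4 livers, with a median of 0.726, against 0.0880 to 0.228 CPM in month 2 oil livers, with a median of 0.149. The groups did not overlap, and the log2 fold change was 2.33 ± 0.40 (SE, adjusted p = 0.0002285). Month 6 CCl4 livers were between 0.327 and 1.22 CPM, with every mouse above every oil mouse of both oil groups (1.97 ± 0.32, adjusted p = 7.958e-05). Month 12 CCl4 livers were between 0.245 and 0.915 CPM, with a median of 0.581, against 0 to 0.277 CPM in month 12 oil livers, with a median of 0.240 (1.57 ± 0.40, adjusted p = 0.001396). The lowest CCl4 mouse, replicate 2, overlapped the oil group at month 12. The 3 Ncr1 calls were kept when any single mouse of their comparison was left out, and their log2 values then stayed between 1.29 and 2.47. The share of all genes whose CCl4 libraries all lay above the oil libraries was 4.64% at month 2, 0.867% at month 6 and 12.1% at month 12.

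Nkg7, a protein of cytotoxic granules, and Prf1, which encodes perforin, were called at month 12 only. Nkg7 was between 0.754 and 1.96 CPM in month 12 CCl4 livers, with a median of 1.39, against 0.361 to 0.673 CPM in month 12 oil livers, with a median of 0.523. The groups did not overlap (log2 1.36 ± 0.32, SE, adjusted p = 0.0006323). Prf1 was between 0.148 and 0.982 CPM in CCl4 livers, with a median of 0.394, against 0 to 0.356 CPM in oil livers, with a median of 0.114, and the groups overlapped (1.61 ± 0.44, adjusted p = 0.002907). Whether the CCl4 effects on Nkg7 and Prf1 differed between months 12 and 2 was tested, and neither passed (0.86 ± 0.45, adjusted p = 0.1812, and 1.40 ± 0.60, adjusted p = 0.0961). Gzmb, which encodes granzyme B, did not pass at month 2 (0.95 ± 0.33, adjusted p = 0.05543) or month 12 (0.68 ± 0.31, adjusted p = 0.06303). Of the single mice left out, only oil replicate 2 (1.07) and CCl4 replicate 4 (1.06) gave a call at month 2. At month 12 only CCl4 replicates 1 and 3 and oil replicate 5 did, at values from 0.81 to 0.87. Gzmb was also called at month 2 with the compared groups alone fitted, and at both months with library totals alone. It was higher in month 12 CCl4 livers, at 0.728 to 1.90 CPM, than in month 6 CCl4 livers, at 0.332 to 0.997 CPM (1.19 ± 0.31, adjusted p = 0.002537). Klrb1c, the NK1.1 antigen of this strain, had log2 values of 0.06, -0.05 and -0.12 at months 2, 6 and 12 and was called at none. Klrb1c medians were between 0.769 and 0.868 CPM in all 6 groups. The untested members were at similar low levels, with medians of 0.342 CPM in month 12 CCl4 livers and 0.0856 CPM in month 12 oil livers for Eomes, and 0.285 and 0.295 CPM for Tbx21.

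**Figure D2:**
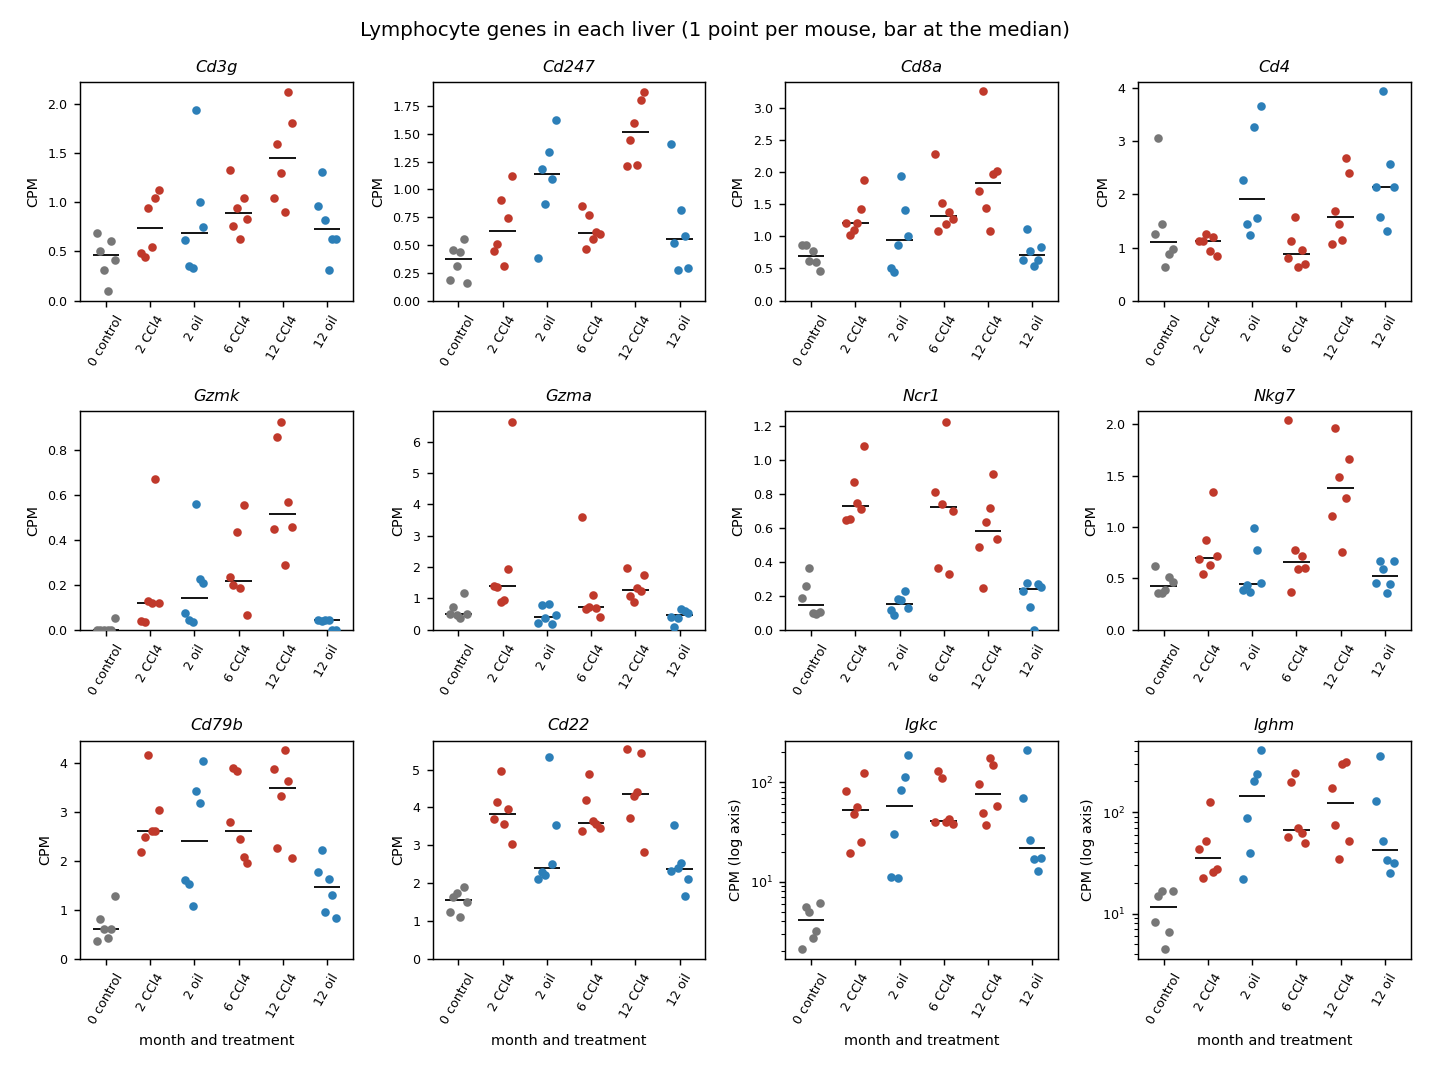
CPM in each of the 36 livers (1 point per mouse, bar at the median) for 12 members by month and treatment, on linear axes from 0 except Igkc and Ighm, which have log axes. Ncr1 is high in all 3 CCl4 groups, Gzmk is highest in month 12 CCl4 livers at 0.287 to 0.927 CPM, Cd4 is lowest in month 6 CCl4 livers, and Igkc and Ighm are low at month 0 alone.

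Of the 6 B cell members, 2 were called in month 12 CCl4 livers. Both were higher, a share near the 25.9% of all genes called higher. Cd79b (chr11:106311341-106314762) encodes a signalling chain of the B cell receptor. It was between 2.05 and 4.27 CPM in month 12 CCl4 livers, with a median of 3.48, against 0.840 to 2.22 CPM in month 12 oil livers, with a median of 1.47. A single mouse of each group overlapped, and the log2 fold change was 1.15 ± 0.30 (SE, adjusted p = 0.001573). Cd22 (chr7:30865402-30880342), an inhibitory coreceptor of B cells, was between 2.83 and 5.55 CPM in CCl4 livers, with a median of 4.36, against 1.67 to 3.52 CPM in oil livers, with a median of 2.36 (0.85 ± 0.20, adjusted p = 0.0006759). The partner chain Cd79a, the surface antigen Ms4a1 (CD20), the B cell transcription factor Pax5 and the kinase Blk were not called, with log2 values between -0.01 for Blk and 0.34 ± 0.40 for Cd79a. At month 6 all 6 had fold changes above 0, from 0.42 to 0.59, and Cd22 alone passed (0.51 ± 0.17, adjusted p = 0.0435). That Cd22 call was lost without any 1 of 14 of the 18 mice, at values from 0.43 to 0.54, as was the month 6 call of Cd8a (0.71 ± 0.24, adjusted p = 0.04799), likewise without any 1 of 14 mice, at values from 0.54 to 0.79. Against month 2 oil alone neither passed (Cd22 0.36, adjusted p = 0.2928, and Cd8a 0.49, adjusted p = 0.3117). No B cell member was called at month 2.

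None of the 6 tested plasma cell and immunoglobulin members was called with CCl4 at month 2, 6 or 12. The widest spread was among mice of the same group. Igkc (chr6:70726435-70726966), the constant region of the kappa light chain, was between 37.3 and 175 CPM in month 12 CCl4 livers, with a median of 76.8, against 12.8 to 208 CPM in month 12 oil livers, with a median of 21.9. The highest oil mouse was above every CCl4 mouse and the other oil mice reached at most 69.7 CPM, and the log2 fold change was 0.69 ± 0.64 (SE, adjusted p = 0.391). Ighm (chr12:113418558-113422730), the heavy chain of IgM, was between 34.8 and 309 CPM in month 12 CCl4 livers, against 25.3 to 359 CPM in month 12 oil livers (0.58 ± 0.67, adjusted p = 0.4973). Jchain, Mzb1, which encodes a chaperone of antibody assembly, the lambda constant region Iglc1 and Pou2af1, a coactivator of immunoglobulin transcription, had log2 values from 0.44 to 1.07 at month 12, none of them called. Tnfrsf17 was at most 0.376 CPM in any library.

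The month 12 calls of some of these genes changed when a single oil mouse was left out. Oil replicate 2 held 208 CPM of Igkc, 359 CPM of Ighm and 86.9 CPM of Jchain, and its summed mesothelial and adipose markers were also the highest of all oil livers, at 124 CPM. Without this mouse 22 members were called higher at month 12 in place of 15, and 4 of them were immunoglobulin or plasma cell members. These were Igkc (log2 1.72, adjusted p = 0.02103), Iglc1 (1.41, adjusted p = 0.01842), Jchain (1.46, adjusted p = 0.03316) and Pou2af1 (1.29, adjusted p = 0.01398). The remaining 3 that were gained were Cd3e, Cd2 (0.94, adjusted p = 0.04282) and Il7r (0.88, adjusted p = 0.02945). Ighm and Mzb1 were not called without this mouse either. Iglc1 was also called without CCl4 replicate 2 (1.19, adjusted p = 0.04578) or CCl4 replicate 3 (1.25, adjusted p = 0.03193). The share of all genes called in these refits was not counted, so the rise from 15 to 22 cannot be read as particular to the members.

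At month 2 Ighm had a log2 fold change of -1.74 ± 0.69 (SE) that did not pass (adjusted p = 0.1014). Igkc was at -0.31 ± 0.64 and Jchain at 0.30 ± 0.60. Of the single mice left out, only CCl4 replicate 4 gave an Ighm call, which was lower (-2.27, adjusted p = 0.04487). Ighm was between 22.2 and 126 CPM in month 2 CCl4 livers, with a median of 35.4, against 22.04 to 404 CPM in month 2 oil livers, with a median of 143. The share of each heavy chain was then read from the constant region counts. Ighm took between 10.15% and 81.4% of all heavy chain constant region counts in month 2 CCl4 livers, with a median of 38.4%, against 72.1% to 89.2% in month 2 oil livers, with a median of 79.4%. A single CCl4 mouse, replicate 4, lay in the oil range, and the largest half-width of the exact 95% interval of these shares was 3.18 percentage points, for counting error only. Igha, the heavy chain of IgA, took between 2.72% and 85.3% in month 2 CCl4 livers, with a median of 40.1%, against 5.55% to 15.9% in month 2 oil livers. The IgG heavy chains took between 3.45% and 76.1% in month 2 CCl4 livers, against 2.49% to 18.7% in month 2 oil livers. The highest IgG share was in CCl4 replicate 1, the library with neutrophil transcripts, where Ighm took 20.5% and Igha 2.72%. The highest Igha share was in replicate 6, the library with intestine transcripts, which also had the highest Jchain level, 103 CPM. At month 12 the Ighm share was between 35.04% and 78.0% in CCl4 livers and between 58.45% and 71.8% in oil livers. These shares were looked at after the member values were seen and were not tested.

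**Figure D3:**
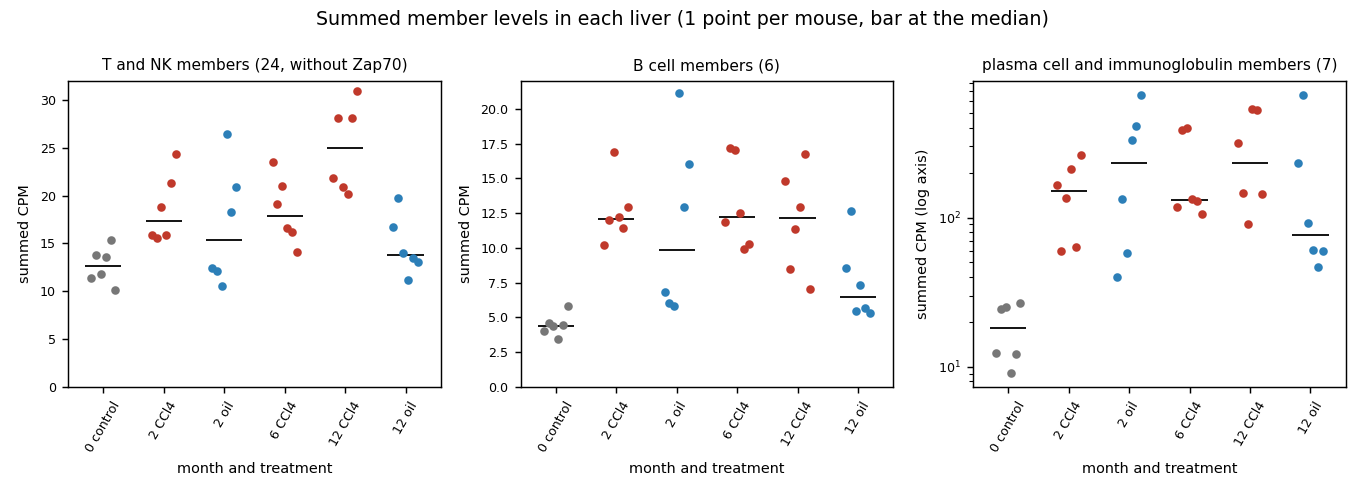
Summed CPM of 24 T and NK members, 6 B cell members and 7 plasma cell and immunoglobulin members in each liver (1 point per mouse, bar at the median, log axis in the right panel). Zap70 is left out of the T and NK sum because its level exceeds that of the other T and NK members; the sum is highest in month 12 CCl4 livers, at 20.2 to 30.9 CPM, while the plasma cell sum is lowest at month 0, at 9.09 to 26.9 CPM.

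Set side by side, the T and NK members and the B and plasma members had medians of 0.05 and 0.14 at month 2, 0.22 and 0.40 at month 6 and 0.91 and 0.56 at month 12 (log2, 23 and 12 tested members). The summed T and NK level without Zap70 was between 20.2 and 30.9 CPM in month 12 CCl4 livers, with a median of 25.0, against 11.2 to 19.8 CPM in month 12 oil livers, with a median of 13.7. Zap70 was left out after its level was seen, and with it the sums were between 30.6 and 40.4 CPM in CCl4 livers, with a median of 32.8, against 19.8 to 32.3 CPM in oil livers, with a median of 26.6. The groups did not overlap without Zap70 and overlapped with it, whereas at month 2 the sum without Zap70 was between 15.6 and 24.4 CPM in CCl4 livers and between 10.54 and 26.5 CPM in oil livers. The summed B cell level at month 12 was between 7.05 and 16.8 CPM in CCl4 livers, with a median of 12.2, against 5.29 to 12.7 CPM in oil livers, with a median of 6.50. The summed plasma cell and immunoglobulin level was between 90.5 and 534 CPM in CCl4 livers and between 46.8 and 664 CPM in oil livers, so that the CCl4 range lay within the oil range. The difference between the classes was not tested. Some marker lists of other cells also held genes called higher at month 12, when 25.9% of all genes were called higher and 23.2% lower. Of the cholangiocyte markers 5 of 8 were called higher and 0 lower, with a summed level between 239 and 1146 CPM in CCl4 livers, against 56.6 to 109 CPM in oil livers. Of the proliferation markers 7 of 7 were higher, with sums between 89.4 and 142 CPM in CCl4 livers, against 46.4 to 59.6 CPM in oil livers. Of the dendritic cell markers 6 of 12 were higher, and of the macrophage markers 8 of 14 were higher and 1 lower. Of 9 tested neutrophil markers 1 was called higher and 0 lower, and of 9 stellate and matrix markers 2 were higher and 2 lower. The part of these other cells in the lymphocyte values was not tested. With library totals alone as the scaling, the median of all genes moved by 0.56 at month 12 and 23 of 35 members were called higher, against 67.4% of all genes, so that the size of these changes is relative to the composition scaling.

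From month 6 to month 12 of CCl4, 4 members were called and all were higher at month 12, against 39.2% of all genes, 20.6% higher and 18.6% lower. Cd247 alone had every month 12 mouse above every month 6 mouse, against 8.59% of all genes. They were Cd247 and Gzmb, given above, Lck (0.75 ± 0.26, SE, adjusted p = 0.02149) and Cd4 (0.85 ± 0.33, adjusted p = 0.03784). The Lck call was lost without month 12 or month 6 CCl4 replicate 6 (0.60 and 0.63). The Cd4 call was lost without any 1 of 6 of the 12 mice (month 12 replicates 5 and 6 and month 6 replicates 1, 4, 5 and 6), at values from 0.69 to 0.84. No B or plasma member was called. The month 12 mice were also older than the month 6 mice. With no oil group at month 6, age and longer CCl4 exposure cannot be told apart. The interaction of CCl4 with month, 12 against 2, was called for 3 members, Cd247, Ctla4 and Gzmk, all of T or cytotoxic cells, against 21.3% of all genes, 11.2% higher and 10.1% lower. Without the 4 libraries that stood apart 9 members passed, Ighm, Igkc and Jchain among them, and without month 12 oil replicate 2 alone 7 passed. The share of all genes called without these libraries was not counted.

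Against month 0, most B and plasma members were higher in both oil groups. In month 2 oil livers 19 of the 35 members were called, 17 higher and 2 lower, against 31.3% of all genes (14.8% higher and 16.4% lower), and 11 of the 17 were B and plasma members. In month 12 oil livers 11 were called, 10 higher and 1 lower, against 23.3% of all genes (11.1% higher and 12.2% lower), and 9 of the 10 were B and plasma members. These comparisons share the month 0 mice, and the month 2 and month 12 oil mice are also older than them. Without month 12 oil replicate 2 the month 12 count was 6, since the calls of Cd22 (0.53), Cd79a (0.92), Cd79b (0.90), Mzb1 (1.44) and Pou2af1 (1.40) were lost. The share of all genes called without that mouse was not counted. The Cd22 call was also lost without month 0 control replicate 4 (0.58). The month 12 calls of Cd79a and Mzb1 were also lost without month 12 oil replicate 1 or month 0 control replicates 1, 3, 4 or 5, and that of Mzb1 without month 12 oil replicate 3.

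**Figure D4:**
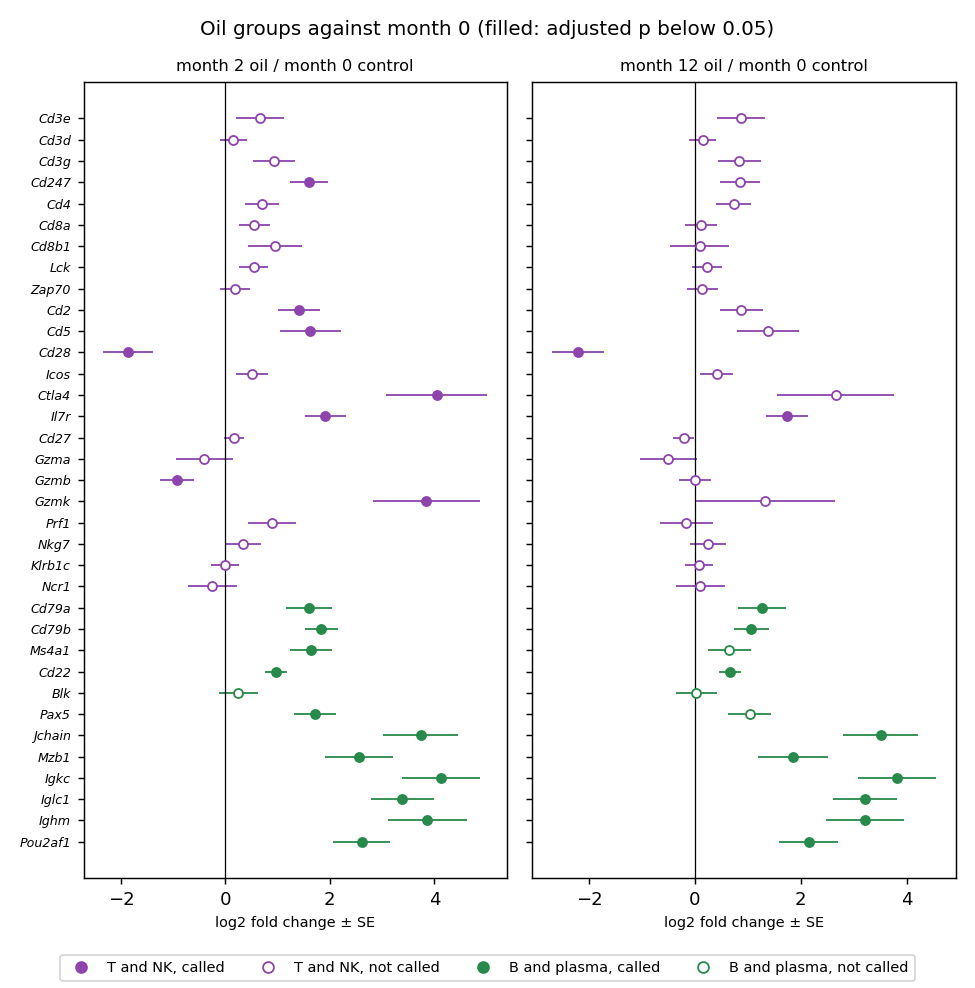
Log2 fold change (horizontal axis) with its standard error for the 35 tested members (vertical axis) in month 2 and month 12 oil livers over month 0 control livers. Filled points passed the adjusted p threshold of 0.05; all 12 B and plasma members lie right of 0 in both panels, Igkc at 4.14 and 3.82, and Cd28 lies left of 0 at -1.86 and -2.21. Fitted values of Ctla4 and Gzmk rest on 1 count at month 0.

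Igkc was between 10.8 and 189 CPM in month 2 oil livers, with a median of 57.1, and between 12.8 and 208 CPM in month 12 oil livers, with a median of 21.9, against 2.12 to 6.09 CPM at month 0, with a median of 4.12. The lowest oil mouse was above the highest month 0 mouse (log2 4.14 ± 0.75 and 3.82 ± 0.74, SE, adjusted p = 8.89e-05 and 0.0003788). Ighm was between 22.04 and 404 CPM in month 2 oil livers and between 25.3 and 359 CPM in month 12 oil livers, against 4.49 to 16.8 CPM at month 0 (3.87 ± 0.76 and 3.22 ± 0.74). Jchain, at 3.74 ± 0.72 and 3.51 ± 0.71, and Iglc1, at 3.39 ± 0.60 and 3.22 ± 0.60, were likewise above every month 0 mouse in both oil groups. All 4 calls were kept in both comparisons when any single mouse was left out, with Ighm values down to 2.26. The share of all genes with every oil mouse above every month 0 mouse was 6.98% at month 2 and 3.63% at month 12. Within the month 2 oil group the mice split: replicates 4, 5 and 6 held 84.2, 112 and 189 CPM of Igkc. Replicates 1, 2 and 3 held 11.3, 29.997 and 10.8 CPM. In the month 12 oil group replicate 2 held 208 CPM and the next highest mouse 69.7 CPM.

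Among the B cell members Cd79b, Cd22 and Cd79a were called in both oil groups, and Ms4a1 (1.64 ± 0.40, SE) and Pax5 (1.71 ± 0.40) in month 2 oil livers only. Cd79b was between 1.09 and 4.05 CPM in month 2 oil livers and between 0.840 and 2.22 CPM in month 12 oil livers, against 0.374 to 1.29 CPM at month 0 (1.84 ± 0.32, adjusted p = 5.562e-05, and 1.07 ± 0.32, adjusted p = 0.01611). Blk was not called in either oil group. Month 0 livers also differed in neutrophil transcripts. Summed neutrophil markers were between 10.96 and 20.1 CPM in month 2 oil livers and between 12.1 and 35.1 CPM in month 12 oil livers, against 47.3 to 117 CPM at month 0, with 6 and 4 of 9 tested markers called lower. Other lists were higher in both oil groups, as the B and plasma members were. Of 8 tested erythroid markers 5 were called higher in each oil group, with median log2 values of 1.20 and 1.07, and of 10 mesothelial and adipose markers 4 and 5 were called higher, with medians of 1.15 and 1.30. The part of these differences in the lymphocyte values was not tested.

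Of the 23 tested T and NK members, 8 were called against month 0 in month 2 oil livers and 2 in month 12 oil livers, against backgrounds of 31.3% and 23.3% of all genes. Il7r was between 0.618 and 2.88 CPM in month 2 oil livers and between 0.587 and 3.52 CPM in month 12 oil livers, against 0.193 to 0.686 CPM at month 0, and was called in both (1.92 ± 0.39, SE, adjusted p = 0.0003792, and 1.73 ± 0.40, adjusted p = 0.00198). Cd247 (1.60 ± 0.37), Cd2 (1.40 ± 0.40) and Cd5 (1.63 ± 0.58) were called in month 2 oil livers, and the Cd5 call was lost without any 1 of 6 mice (oil replicates 4 and 6 and month 0 control replicates 1, 3, 4 and 6), at values from 1.31 to 1.54. Ctla4 and Gzmk, also called there, had 31 and 27 counts in the 6 month 2 oil libraries and 1 count each in the 6 month 0 libraries. Their count ratios were 24.9 (exact 95% interval 4.15 to 1020) and 21.7 (3.58 to 888), and in month 12 oil livers the ratios were 9.35 (1.36 to 402) for Ctla4 and 3.40 (0.336 to 167) for Gzmk. These intervals cover counting error only. Month 2 oil replicate 4 alone held 17 of the 31 counts of Ctla4 and 13 of the 27 counts of Gzmk.

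Cd28 was lower than at month 0 in both oil groups. It was between 0.423 and 1.00 CPM in month 2 oil livers and between 0.210 and 1.07 CPM in month 12 oil livers, against 0.499 to 6.04 CPM at month 0 (-1.86 ± 0.48, SE, adjusted p = 0.003512, and -2.21 ± 0.49, adjusted p = 0.001658). The month 0 mice were uneven, since replicates 4, 5 and 6 held 6.04, 4.17 and 1.70 CPM of Cd28 and replicates 1, 2 and 3 held 0.499, 0.509 and 0.875 CPM. Without replicate 4 the values were -1.32 and -1.66 and both were still called. Gzmb was also lower in month 2 oil livers, at 0.291 to 0.572 CPM against 0.413 to 1.44 CPM at month 0 (-0.93 ± 0.33, adjusted p = 0.03108). That call was lost without month 2 oil replicate 1, 3 or 5 or month 0 control replicate 3 or 5, at values from -0.90 to -0.68, and with library totals alone as the scaling.

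Antibody variable segments, which are joined to the constant regions in each B cell, were read as a further measure of the immunoglobulin transcripts. Summed kappa variable segments (160 symbols) were between 8.73 and 134 CPM in month 2 oil livers and between 11.1 and 192 CPM in month 12 oil livers, against 1.40 to 5.09 CPM at month 0. They were between 28.8 and 114 CPM in month 12 CCl4 livers. Leading segments were counted only for the few of each family with the highest mean share over all livers. Among these, Ighv1-9 was the first of 183 heavy segments in 15 of 36 livers. Of the kappa segments so counted, Igkv17-121 led in 11 livers, Igkv19-93 in 7 and Igkv3-2 in 7. How often any other segment led was not counted. The last 300 bases of the germline transcripts of these 4, from GENCODE vM21 on mm10, are shown because they led most often among the segments counted. Each is in the order of the transcript, the coordinates are those of the whole gene, and capitals mark the codons for Tyr-Tyr-Cys or Tyr-Phe-Cys before the junction with the next segment. Ighv1-9 lies at chr12:114583569-114584002 and Igkv19-93 at chr6:68736297-68736780, both on the minus strand. Igkv17-121 lies at chr6:68036812-68037318 and Igkv3-2 at chr6:70698449-70699067, both on the plus strand.
Ighv1-9: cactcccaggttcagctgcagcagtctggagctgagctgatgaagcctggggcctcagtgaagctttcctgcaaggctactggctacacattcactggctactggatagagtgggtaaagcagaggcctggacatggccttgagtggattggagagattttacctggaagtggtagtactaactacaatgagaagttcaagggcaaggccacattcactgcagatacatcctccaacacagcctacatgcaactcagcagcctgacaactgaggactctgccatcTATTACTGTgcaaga
Igkv19-93: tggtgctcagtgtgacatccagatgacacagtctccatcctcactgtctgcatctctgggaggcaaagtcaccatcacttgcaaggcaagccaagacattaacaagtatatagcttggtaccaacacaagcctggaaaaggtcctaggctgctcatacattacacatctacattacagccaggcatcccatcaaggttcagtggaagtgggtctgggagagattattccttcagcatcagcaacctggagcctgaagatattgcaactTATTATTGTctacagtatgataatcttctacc
Igkv17-121: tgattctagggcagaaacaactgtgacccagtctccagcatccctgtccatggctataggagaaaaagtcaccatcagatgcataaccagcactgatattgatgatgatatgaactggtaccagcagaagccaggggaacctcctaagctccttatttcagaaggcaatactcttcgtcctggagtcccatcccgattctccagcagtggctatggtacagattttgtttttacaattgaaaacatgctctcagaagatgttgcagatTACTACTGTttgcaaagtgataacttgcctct
Igkv3-2: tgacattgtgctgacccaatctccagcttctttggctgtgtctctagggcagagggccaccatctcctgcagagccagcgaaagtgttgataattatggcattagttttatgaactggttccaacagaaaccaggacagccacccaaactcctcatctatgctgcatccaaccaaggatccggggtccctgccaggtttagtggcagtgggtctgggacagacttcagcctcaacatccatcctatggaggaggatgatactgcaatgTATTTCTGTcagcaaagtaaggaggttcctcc

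The shares of Ighv1-9 and Igkv19-93 had their highest medians in month 6 CCl4 mice, 21.6% and 21.5%. Ighv1-9 took between 17% and 24.7% of heavy variable counts in month 6 CCl4 livers and was the leading segment in all 6 mice. It took between 0.975% and 16.7% in month 2 CCl4 livers and between 4.92% and 15.75% in month 12 CCl4 livers, against 1.52% to 9.99% in month 2 oil livers, 2.60% to 16.25% in month 12 oil livers and 0% to 3.03% at month 0. Igkv19-93 took between 18.7% and 28.8% of kappa variable counts in month 6 CCl4 livers and led in 5 of the 6, and in every other group its highest share was at most 19.15%. Of the other 2 segments, Igkv17-121 took between 6.25% and 23.1% at month 6 and Igkv3-2 between 0.541% and 7.42%. Igkv17-121 reached 55.0% in a month 2 oil liver, and Igkv3-2 was between 1.63% and 32.25% in month 12 CCl4 livers, against 0.353% to 14.6% in month 12 oil livers. The month 0 shares rest on 33 to 75 heavy and 29 to 100 kappa variable counts per library. These segments were picked after their values were seen and were not tested, and reads of near-identical segments cannot be assigned with certainty.

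**Figure D5:**
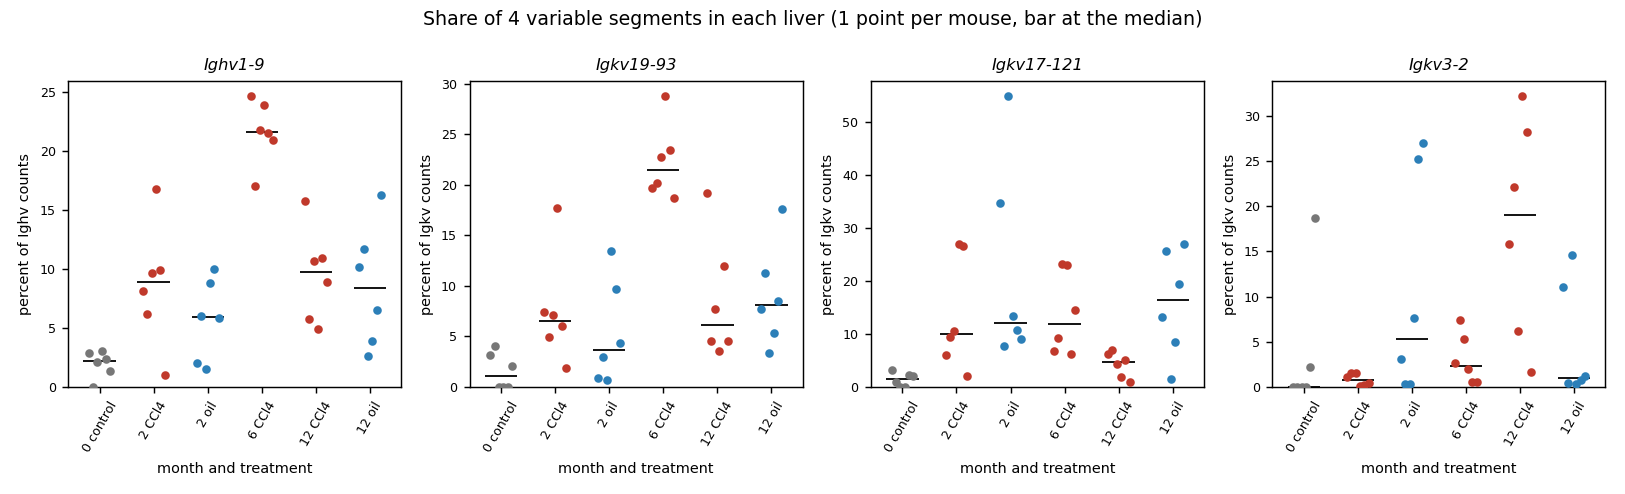
Share of Ighv1-9 among heavy variable counts and of Igkv19-93, Igkv17-121 and Igkv3-2 among kappa variable counts (vertical axes, percent) in each liver by month and treatment (1 point per mouse, bar at the median). In month 6 CCl4 livers the 6 mice lie at 17% to 24.7% for Ighv1-9 and 18.7% to 28.8% for Igkv19-93. They lie at 6.25% to 23.1% for Igkv17-121 and 0.541% to 7.42% for Igkv3-2.

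Other lymphocyte genes were counted by list at month 12, to be read against the 25.9% of all genes called higher and 23.2% called lower. Of 23 tested further T cell genes 9 were called higher and 0 lower in CCl4 livers, with a median log2 fold change of 0.54, against 0.01 for all genes. Themis, a regulator of T cell receptor signalling, was between 2.20 and 6.78 CPM in month 12 CCl4 livers, with a median of 4.62, against 0.496 to 1.59 CPM in month 12 oil livers, with a median of 1.03 (2.09 ± 0.34, SE, adjusted p = 5.649e-06). The chemokine receptor Cxcr3 (1.34 ± 0.32) and the integrin chain Itgae (0.86 ± 0.26) were also higher, Cxcr3 without overlap. Of 11 regulatory and exhausted T cell genes 4 were called higher and 1 lower. The inhibitory receptor Havcr2 rose by 1.62 ± 0.30 and the ectoenzyme Entpd1 by 0.88 ± 0.13, both also expressed by myeloid or endothelial cells, while the inhibitory receptor Lag3 fell by 1.13 ± 0.23, each without overlap. Summed macrophage markers were between 752 and 1777 CPM in month 12 CCl4 livers, against 721 to 1046 CPM in month 12 oil livers, and their part was not tested.

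Of 14 tested further NK and cytotoxic genes 7 were called higher and 1 lower in month 12 CCl4 livers. Ccl5, a chemokine of cytotoxic cells, was between 1.51 and 5.03 CPM in CCl4 livers, with a median of 2.47, against 0.541 to 1.32 CPM in oil livers, with a median of 0.882 (1.61 ± 0.34, SE, adjusted p = 0.0001808). Klrd1, the CD94 chain of NK receptors, rose by 1.25 ± 0.27, without overlap. The sphingosine phosphate receptor S1pr5 moved the other way, at 1.40 to 3.12 CPM in CCl4 livers against 2.90 to 6.26 CPM in oil livers (-1.13 ± 0.20, adjusted p = 2.096e-05). Of 19 further B cell genes 5 were called higher and 1 lower, a share higher near the background of 25.9%. The adaptor Blnk (1.23 ± 0.21), Cd72 (1.19 ± 0.21) and Ralgps2 (0.60 ± 0.11) were higher without overlap, and Cd55, a complement regulator of many cell types, was lower (-0.45 ± 0.17).

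Of 18 tested further plasma cell and antibody constant genes 3 were called higher and 1 lower in month 12 CCl4 livers, a share higher below the background of 25.9%. Slamf7 (1.42 ± 0.26, SE) and Prdm1 (1.20 ± 0.31) were higher without overlap. Xbp1, a transcription factor of secretory cells that hepatocytes also express, was lower, at 120 to 191 CPM in CCl4 livers against 171 to 338 CPM in oil livers (-0.79 ± 0.16, adjusted p = 0.0001194). The antibody constant genes Igha, Ighg1, Ighg2b, Ighg2c and Ighg3 were not called with CCl4 at month 2, 6 or 12. Against month 0 all 5 were called higher in both oil groups, Igha by 2.92 ± 0.80 in month 2 oil livers and by 2.96 ± 0.80 in month 12 oil livers. Of 15 tested lymphocyte chemokines, cytokines and lymphoid tissue genes 10 were called higher and 0 lower at month 12. Cxcl16, a chemokine that attracts T and NKT cells, was between 21.8 and 42.8 CPM in CCl4 livers, with a median of 30.8, against 10.02 to 15.997 CPM in oil livers, with a median of 11.2 (1.39 ± 0.15, adjusted p = 3.393e-09). Tnfsf13, which encodes APRIL, a survival factor of plasma cells, was between 3.97 and 21.7 CPM in CCl4 livers, with a median of 6.74, against 1.72 to 3.72 CPM in oil livers, with a median of 2.22 (2.03 ± 0.32, adjusted p = 3.101e-06). Ccl20, a chemokine for CCR6 on B and T cells, held 386 counts in the 6 CCl4 libraries and 1 count in the 6 oil libraries, a count ratio of 296 (exact 95% interval 52.7 to 11700, for counting error only).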

How the data were processed

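Liver RNA was extracted with TRIzol, depleted of ribosomal RNA, made into stranded total RNA libraries and read as paired ends, per the labels' protocols. The deposited values are raw read counts per gene symbol, aligned with Biojupies to mm10, per the labels; the submitters' processing notes name edgeR 3.30.3 and limma 3.44.3. The gene annotation behind the counts, and whether counting used strand, are not given in the sources used here, so that reads of overlapping, antisense or near-identical genes may be shared. The counts of all 36 libraries were fitted together with edgeR 4.0.16 (R 4.3.3): TMM scaling (factors 0.757 to 1.33), edgeR's filter on low counts, which kept 15338 of 32544 genes, a quasi-likelihood fit with 1 mean per group, and 7 contrasts with Benjamini-Hochberg adjustment over all tested genes in each. Month 6 CCl4 was set against the mean of both oil groups. SE is the standard error of the log2 fold change. The pipeline was tested on simulated data. No 2 replicates were copies of 1 library. Replicates are numbered in the titles, and p-values measure the spread between these samples. Members and gene lists were chosen with earlier results of these data known. All 38 members are named, and of each related list the 3 genes with the smallest p at month 12 and any called against the direction of the majority. Alternatives were other scalings, filters, DESeq2 1.42.0, a replicate block, other reference groups and leaving out libraries.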

Additional observations from a re-analysis of the deposited data

Results flagged for a closer look

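In 33 of the 228 groups of 6 mice examined, 1 mouse stood far from the other 5, with a gap to the nearest above the 95% critical value of Dixon's test. Chance alone flags about 1 group in 20 only where values are normally distributed, and genes of the same cell type are not independent. Levels near the floor are not so distributed, and a group that holds a single count is always flagged. The 33 groups are therefore no measure of an excess of outlying mice. Month 12 oil replicate 2 was the highest of its group in 9 of these, with 208 CPM of Igkc, 359 CPM of Ighm, 86.9 CPM of Jchain, 3.52 CPM of Il7r, 2.53 CPM of Pou2af1, 1.39 CPM of Blk, 1.07 CPM of Cd28, 0.832 CPM of Cd3e and 0.238 CPM of Tnfrsf17. Month 6 CCl4 replicate 1 was highest in Gzma (3.61 CPM), Cd8a (2.28 CPM) and Nkg7 (2.04 CPM) and lowest in Klrb1c (0.475 CPM). Month 2 oil replicate 4 was highest in Lck (1.89 CPM), Ctla4 (0.732 CPM) and Gzmk (0.559 CPM).

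Among the other CCl4 mice, month 2 replicate 6 held 103 CPM of Jchain and 6.63 CPM of Gzma, replicate 4 held 126 CPM of Ighm and replicate 5 held 0.672 CPM of Gzmk. At month 6, replicate 2 held 4.59 CPM of Il7r and 4.36 CPM of Iglc1, and replicate 3 held 0.674 CPM of Cd3e and 0.674 CPM of Eomes. At month 12, replicate 2 held 1.29 CPM of Cd8b1 and 0.797 CPM of Eomes, replicate 5 held 4.43 CPM of Ms4a1 and replicate 6 held 2.48 CPM of Cd28. Month 12 oil replicate 5 held 1.31 CPM of Gzmb and month 2 oil replicate 6 held 0.376 CPM of Tnfrsf17. At month 0, replicate 2 held 3.05 CPM of Cd4, and replicates 5 and 6 held 0.0463 CPM of Ctla4 and 0.0516 CPM of Gzmk, each a single count where the other 5 libraries held 0.

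The CCl4 effect differed between month 12 and month 2 for 3 members by the interaction test. The log2 differences, month 12 minus month 2, were 1.91 for Cd247, 3.08 for Ctla4 and 4.16 for Gzmk. At month 2 the CCl4 effects were -0.68, -0.66 and -0.03, and none was called. At month 12 they were 1.23, 2.43 and 4.13. Their medians were 1.14, 0.143 and 0.143 CPM in month 2 oil livers, against 0.550, 0.0904 and 0.0424 CPM in month 12 oil livers. All 3 were called higher in month 2 oil livers than at month 0. The part of the oil groups in the interactions was not tested.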

How the results depend on the processing

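No member called in a comparison changed sign under any alternative tried. Over members and settings, 5303 values kept their side of the threshold, 132 lost a call and 102 gained one. With library totals alone, where the median of all genes moved by 0.31 at month 6, 0.56 at month 12 and 0.35 in the interaction, 16 members were called at month 6, 23 at month 12 and 13 in the interaction, in place of 6, 15 and 3. Of all genes 59.1%, 71.2% and 36.2% were then called, so that the members' counts rose with those of all genes. Month 6 gave 3 calls when only the compared groups were fitted and 2 against month 2 oil alone. The interaction gave 1 call, that of Cd247, with a filter of 1 CPM in 6 libraries. Ctla4 and Gzmk lie too low to pass that filter and were not tested under it. Without the 4 libraries that stood apart the interaction gave 9 calls and month 12 oil against month 0 gave 6. Leaving out each mouse in turn gave 2 to 4 calls at month 2, 3 to 8 at month 6, 12 to 22 at month 12, 2 to 7 in the interaction, 17 to 21 for month 2 oil and 6 to 12 for month 12 oil against month 0, and 2 to 5 for month 12 against month 6 CCl4. Month 6 had 3 calls without month 6 CCl4 replicate 3 or 5, month 2 oil replicate 1 or 3, or month 12 oil replicate 3, 5 or 6. The interaction had 5 without month 12 CCl4 replicate 4 or month 2 oil replicate 1 or 2. It had 7 when month 12 oil replicate 2 was left out, which also left 6 for month 12 oil against month 0. Month 12 against month 6 CCl4 had 2 without replicate 6 of either group. When libraries were left out, the share of all genes called was not counted, so those member counts have no background beside them. The cause of the other changes was not tested.

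The replicate numbers did not pair the mice: 22 of 90 same-numbered pairs of groups and numbers had deviations correlated above 0.1 (range -0.599 to 0.533), and in 9 of 90 a library correlated best with its own number. With the replicate number as a block, 3 members were called at month 6 in place of 6, 14 at month 12, 3 at month 2, 3 in the interaction, 19 and 9 for month 2 and month 12 oil against month 0, and 4 for month 12 against month 6 CCl4. Most T and NK members lie near or below 1 CPM, where counting error limits the size of a fold change.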

Other observations

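Variable segments of the T cell receptor gave a further reading of T cell transcripts that no comparison used. Summed T cell receptor beta variable segments were between 0.467 and 1.45 CPM in month 12 CCl4 livers, with a median of 1.31, against 0.541 to 0.911 CPM in month 12 oil livers, with a median of 0.587. Summed T cell receptor alpha variable segments were between 0.208 and 0.829 CPM in month 12 CCl4 livers, with a median of 0.554, against 0.0911 to 0.475 CPM in month 12 oil livers, with a median of 0.135. Both overlapped between the groups and neither was tested.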
